A study of Mus musculus with 9 samples.

Results

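The genes described here are the 90 potassium channel genes of a mouse thyroid RNA-seq table with 33924 named genes. They were chosen by name: every row whose symbol is Kcn, then letters, then a number at the end, other than Kcne2 and Kcnq1. The rule takes in pore-forming subunits and auxiliary subunits alike, and leaves out Kcne1l and Kcnrg, which start with Kcn but do not end in that form. No measured value entered the rule. Of the 90 genes, 64 passed the filter on low counts and could be tested.

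The tissue was whole thyroid of wild-type mice, of mice with the genotype label Arid2 KO and of mice with the genotype label Smarcb1 KO, with 3 libraries in each of the 3 groups. Both named genes code for parts of SWI/SNF, the family of chromatin remodelling complexes that move nucleosomes. The alleles, the promoter or cell type that drove a deletion, and the strain, age and sex of the mice are not given in the sources used here. No label says whether the libraries of a group are of different animals. Xist and Ddx3y levels, given below, set Smarcb1-labelled replicate 3 apart from replicates 1 and 2, so that group is not of a single animal. The spread behind each p-value is that between libraries, and in the other groups it may not be that between animals. Libraries within each of these groups also differed in transcripts of neighbouring tissues, as given below. The question each comparison addresses is which of these channel genes differ in transcript level between the groups.

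Potassium channels let potassium ions leave or enter a cell along their electrochemical gradient and so set its membrane potential. Voltage-gated members open when the membrane depolarises, inward rectifiers and tandem-pore (K2P) members carry the resting conductance, and other members open with intracellular calcium or sodium. In the thyroid follicular cell, the epithelial cell that makes thyroid hormone, potassium conductance on the blood-facing side helps to keep up the gradients on which iodide uptake depends.

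Total counts per library ran from 33666251 to 89553766, and the Arid2-labelled libraries were the deepest. Thyroid tissue was evident in all 9 libraries: Tg, the gene of thyroglobulin, stood between 225709 and 321261 CPM (counts scaled to library size with TMM factors), and 12 of 13 follicular markers passed the filter. As a check of the labels, the targeted genes were examined. Arid2 was at 67.8 to 74.96 CPM in wild type and at 59.9 to 94.6 CPM among Arid2-labelled libraries, so its level does not check that label. Smarcb1 stood at 65.9 to 71.7 CPM in wild type, at 57.3 to 64.6 CPM among Arid2-labelled libraries and at 47.5 to 59.4 CPM among Smarcb1-labelled libraries. Both labelled groups lay below wild type and overlapped each other. In Smarcb1-labelled against wild type its log2 fold change was -0.36, which did not pass edgeR's test (adjusted p = 0.0651). The Smarcb1 level thus does not settle that label either. Some libraries carried transcripts of neighbouring tissues. Summed thymocyte markers were at most 16.9 CPM in 7 libraries, while Arid2-labelled replicate 1 had 1378 CPM and Smarcb1-labelled replicate 2 had 237 CPM, and Rag1 was at 0 in every wild-type library. Summed parathyroid markers (Pth, Gcm2 and Casr) were at 8.16 to 4320 CPM in wild type, 10.6 to 1581 CPM among Arid2-labelled and 6092 to 16992 CPM among Smarcb1-labelled libraries. One Smarcb1-labelled library, replicate 3, had 809 CPM of Xist, the RNA made from the inactive X chromosome, and no count of the Y-linked gene Ddx3y. The other 8 had at most 2.595 CPM of Xist and 43.4 to 110 CPM of Ddx3y. Replicate 3 thus had the transcripts of a female and the other 8 those of males, so sex was mixed within the Smarcb1-labelled group. In whole tissue, fewer cells of a type and less RNA per cell cannot be told apart.

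Kcnk1 and Kcnh3 had the highest levels of the 90 genes. Per kb of transcript (the longest annotated transcript of each gene), Kcnk1 averaged 223 CPM per kb over the 3 groups and Kcnh3 179 CPM per kb. Kcnk1 encodes TWIK-1, a tandem-pore leak channel, and Kcnh3 encodes Kv12.2, a voltage-gated channel of the ether-a-go-go family best known from forebrain neurons. A second tier held Kcnj16 with 53.4 CPM per kb, Kcnip3 with 47.6 CPM per kb, Kcnj15 with 43.5 CPM per kb and Kcnk5 with 22.3 CPM per kb. Kcnj16 and Kcnj15 encode the inward rectifiers Kir5.1 and Kir4.2, and Kcnk5 encodes TASK-2, a tandem-pore channel that opens at alkaline pH. Kcnip3 encodes a calcium-binding partner of Kv4 channels that also acts as a transcriptional repressor. Below them Kcnj8, Kcnab2, Kcnk3, Kcnj2, Kcna1 and Kcns3 lay between 6.79 and 3.34 CPM per kb. Most neighbours in this order overlapped in their 9-library ranges. Kcnj15 lay above Kcnk5, and Kcnk5 above Kcnj8, in every library without overlap of the ranges. In 7 of 9 libraries Kcnk1 was above Kcnh3.

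**Figure D1:**
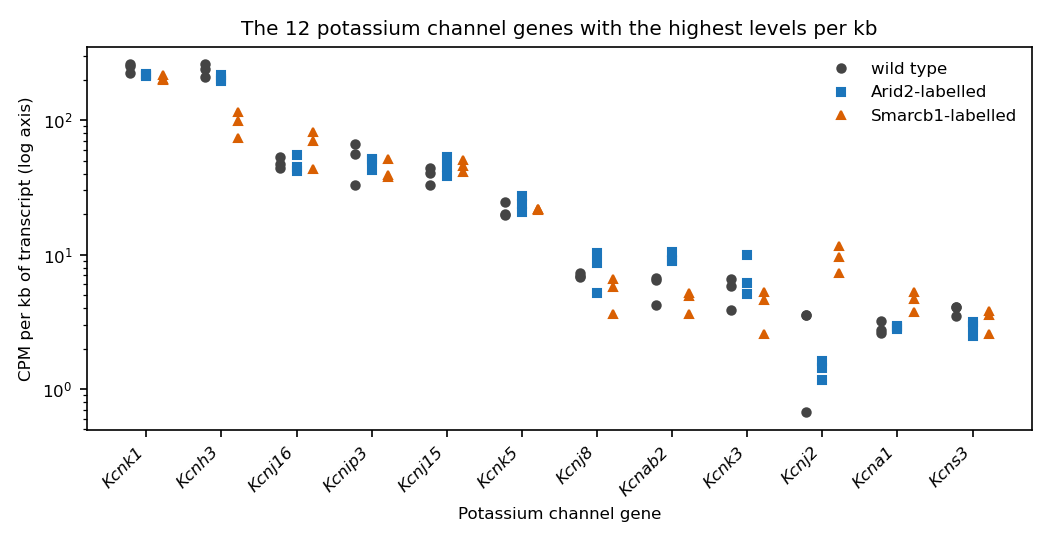
Levels of the 12 potassium channel genes highest among the 90 as CPM per kb of transcript (log axis), with 1 point for each of the 9 libraries and a colour and symbol for each group. Kcnk1 and Kcnh3 lead with means of 223 and 179 CPM per kb, and the Smarcb1-labelled points of Kcnh3 lie below those of the other groups.

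The 90 genes together took 0.230%, 0.248% and 0.209% of the counts in wild-type replicates 1, 2 and 3. Their share was 0.215%, 0.206% and 0.224% among Arid2-labelled libraries and 0.177%, 0.186% and 0.174% among Smarcb1-labelled libraries. The Smarcb1-labelled shares lay below all the others. With Kcnh3 left out the shares were 0.131% to 0.148% in wild type, 0.135% to 0.142% among Arid2-labelled and 0.139% to 0.150% among Smarcb1-labelled libraries, and all 3 groups overlapped. Kcnh3 alone made up 37.2% to 40.4% of the channel counts in wild type, 34.0% to 36.8% among Arid2-labelled libraries and 15.2% to 24.3% among Smarcb1-labelled libraries.

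The 26 genes that were not tested were at or near the floor. Kcnk15 and Kcnk9 had 0 counts in all 9 libraries, and the highest count of any of the others in any library was 41, for Kcne1. They comprised 6 voltage-gated pore-forming genes, 7 silent partners, 6 inward rectifiers, 5 tandem-pore genes and 2 auxiliary subunits. At this depth a difference in them was not detectable. Among the genes named here, Kcnab2, Kcnj15, Kcnk1, Kcnk3 and Kcnma1 share 125 to 1016 exonic bases with a non-coding neighbour in the GRCm38 annotation and Kcnh3 shares 1 with Mcrs1, and reads there cannot be assigned with certainty.

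Between Arid2-labelled and wild-type thyroid, 1 of the 64 tested channel genes passed an adjusted p of 0.05 (edgeR's quasi-likelihood test, Benjamini-Hochberg adjustment over all 17079 tested genes). That gene was Kcnt1, which was higher. The called share was 1.56% of the channel genes, beside 0.556% of all tested genes in either direction and 0.234% in the higher direction. No channel gene was called lower there, beside 0.322% of all tested genes. Between Smarcb1-labelled and wild-type thyroid, 4 of 64 were called, which is 6.25% beside 7.9% of all tested genes. The 2 that were higher were Kcna1 and Kcnj5 (2.15% of all tested genes were higher), and the 2 that were lower included Kcnh3 (5.74% of all tested genes were lower). Between Smarcb1-labelled and Arid2-labelled thyroid, 11 of 64 were called, which is 17.2% beside 16.3% of all tested genes. Kcna1, Kcnh7, Kcnj2 and Kcnj3 were higher in the Smarcb1-labelled group (6.95% of all tested genes were). The 7 that were lower included Kcnt1, Kcnh3, Kcnab2, Kcnh4 and Kcnk4 (9.32% of all tested genes were lower). At an unadjusted p under 0.05 the counts were 15 (23.4%, beside 14.9% of all tested genes), 14 (21.9%, beside 28.4%) and 21 (32.8%, beside 35.8%) in the same order. In the last 2 comparisons the called shares were near those of all genes. The first 2 comparisons share the wild-type libraries, and the third shares libraries with both.

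Groups that did not overlap were also about as frequent among the channel genes as among all genes. Arid2-labelled libraries lay wholly above wild type in 11 of 64 genes (17.2%, beside 12.9% of all tested genes) and wholly below in 7 (10.9%, beside 12.6%). Smarcb1-labelled libraries lay wholly above wild type in 8 (12.5%, beside 17.1%) and wholly below in 9 (14.1%, beside 16.7%). Against the Arid2-labelled libraries the Smarcb1-labelled ones lay wholly above in 8 (12.5%, beside 18.3%) and wholly below in 11 (17.2%, beside 20.5%). The median log2 fold changes of the 64 genes were 0.04, 0.05 and -0.08 in the same order of comparisons, beside 0.02, 0.05 and 0.003 over all tested genes.

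**Figure D2:**
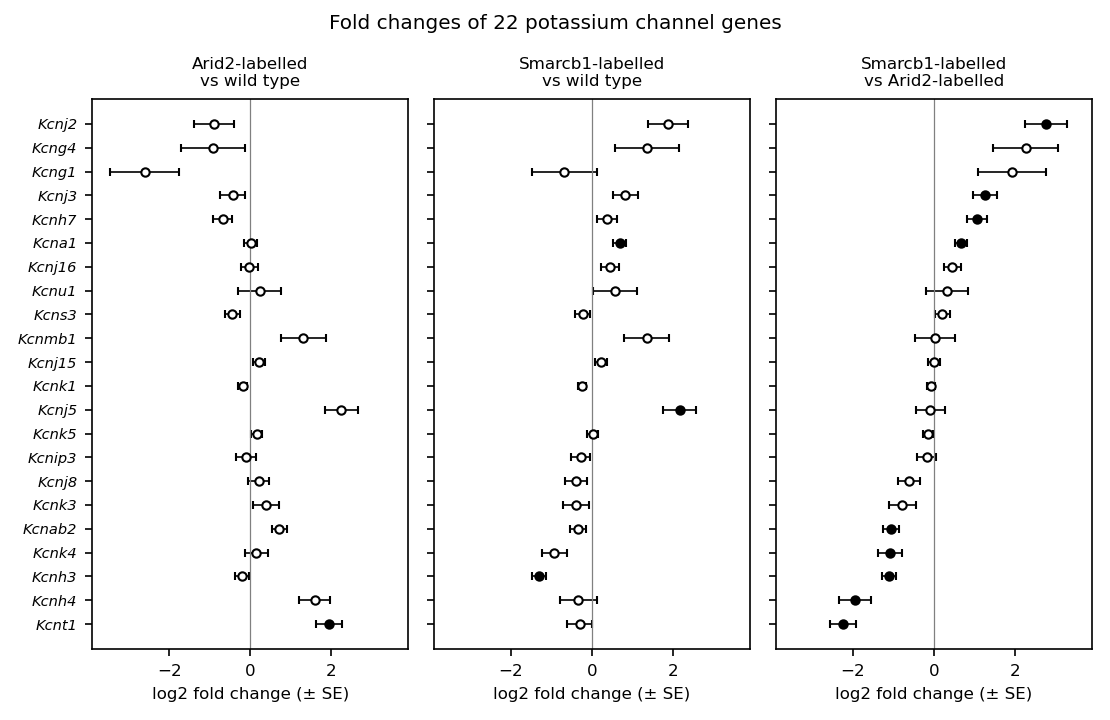
Log2 fold changes with standard errors of 22 channel genes named by rule, in the 3 comparisons. Filled circles passed an adjusted p of 0.05: Kcnt1 in the first panel, 3 genes in the second and 9 in the third, where the genes run from Kcnj2 with 2.76 to Kcnt1 with -2.24.

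Voltage-gated pore-forming genes were the largest family tested. Of 29 such genes 23 were tested. None was called in Arid2-labelled against wild type by edgeR (7 at an unadjusted p under 0.05, 1 by DESeq2, 0 by limma-voom). In Smarcb1-labelled against wild type 1 was higher and 2 were lower (13% called), and in Smarcb1-labelled against Arid2-labelled 2 were higher and 4 were lower (26.1%). For this and the families below, the shares of all tested genes called were 0.556%, 7.9% and 16.3% in the 3 comparisons. At an unadjusted p under 0.05 they were 14.9%, 28.4% and 35.8%. Whether a family differs from all genes was not tested.

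In wild-type replicates 1, 2 and 3, Kcnh3 stood at 884, 962 and 782 CPM. It stood at 720, 749 and 808 CPM among Arid2-labelled libraries and at 272, 422 and 362 CPM among Smarcb1-labelled libraries. All 3 Smarcb1-labelled libraries were below every other library, while wild type and Arid2-labelled overlapped. Kcnh3 fell from 876 ± 90.5 CPM (SD, n = 3) in wild type to 352 ± 75.7 CPM in the Smarcb1-labelled group, with -1.31 as the log2 fold change (SE 0.17, adjusted p = 0.00530). Against the Arid2-labelled mean of 759 ± 45.2 CPM the change was -1.11 (SE 0.17, adjusted p = 0.00746). Arid2-labelled against wild type gave -0.21 (95% interval -0.58 to 0.17, adjusted p = 0.611). The fall against wild type held in 23 of 23 alternatives, 9 of them leaving out 1 library each.

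Fold changes of the Smarcb1-labelled group went with base composition across genes, Kcnh3 among them. Its transcript is 61.2% G and C, and the 678 tested genes above 60% had a median log2 fold change of -0.73 in Smarcb1-labelled against wild type and -0.77 against Arid2-labelled. The 959 genes under 40% had 0.34 and 0.42. After removal of the trend over GC content in each library, Kcnh3 changed by -0.60 against wild type (adjusted p = 0.0172) and by -0.44 against Arid2-labelled (adjusted p = 0.0260). With a parathyroid marker covariate the second call was lost (-1.14, adjusted p = 0.0561). This covariate was 8.51 to 9.19 in the Smarcb1-labelled libraries and 1.08 to 8.05 in the others, without overlap. A Smarcb1-labelled call lost with it, here or below, thus cannot tell the markers from the group. As background, Kcnh3 is known from neurons: of 12 neuron and Schwann cell markers 9 were tested, 0 were called by edgeR in Smarcb1-labelled against wild type (3 at an unadjusted p under 0.05, 2 by DESeq2, 0 by limma-voom), and their summed level was 292 to 306 CPM in wild type and 251 to 306 CPM among Smarcb1-labelled libraries. Of the 12 tested follicular markers, 9 had a negative fold change against wild type and 1 was called lower by edgeR. Against Arid2-labelled 8 were negative and 3 were called lower. Their summed level was 249512 to 322681 CPM in wild type and 229483 to 304133 CPM among Smarcb1-labelled libraries. The part of either cell type in the Kcnh3 result was not tested.

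Kcna1 encodes Kv1.1, a low-threshold channel. Its level was 11.1, 10.5 and 12.96 CPM in wild type, 11.9, 11.3 and 11.6 CPM among Arid2-labelled libraries and 15.1, 18.9 and 21.4 CPM among Smarcb1-labelled libraries. The Smarcb1-labelled libraries were above all others, and the wild-type range held the Arid2-labelled one. Kcna1 rose by 0.68 on the log2 scale against wild type (SE 0.16, adjusted p = 0.0346) and by 0.67 against Arid2-labelled (SE 0.16, adjusted p = 0.0251). Against wild type the call was lost without wild-type replicate 1 (adjusted p = 0.120), 2 (0.106) or 3 (0.0583), Arid2-labelled replicate 2 (0.0635) or 3 (0.0552), or Smarcb1-labelled replicate 3 (0.115). Against Arid2-labelled it was lost without Arid2-labelled replicate 2 (0.0767) or 3 (0.0929) or Smarcb1-labelled replicate 3 (0.0802). Both calls were lost with the parathyroid covariate (0.103 and 0.0975), in fits of only the 6 libraries compared (0.0804 and 0.0555) and without both libraries with thymus markers (0.0635 and 0.0516), and the call against wild type also with the GC trend removed (0.0617) or no filter (0.0556).

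Kcnh7 and Kcnh4, relatives of Kcnh3 in the ether-a-go-go family, went opposite ways between the 2 SWI/SNF groups. Kcnh7, which encodes Kv11.3, was at 15.5, 10.1 and 8.51 CPM in wild type, 6.83, 8.17 and 6.22 CPM among Arid2-labelled libraries and 17.9, 13.5 and 12.9 CPM among Smarcb1-labelled libraries. Only wild-type replicate 1 overlapped the Smarcb1-labelled range. Kcnh7 was higher in Smarcb1-labelled than in Arid2-labelled libraries by 1.06 (SE 0.24, adjusted p = 0.0244). That call was lost without Arid2-labelled replicate 1 (adjusted p = 0.0550), 2 (0.0557) or 3 (0.0987) or Smarcb1-labelled replicate 1 (0.0784) or 3 (0.0517), with the GC trend removed (0.64, adjusted p = 0.117) and with the parathyroid covariate (0.80, adjusted p = 0.188). Kcnh7 shares 696 exonic bases with Gca on the opposite strand, and whether the counting used strand is not given in the sources used here, so its level is uncertain.

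Kcnh4, which encodes Kv12.3, was close to the detection limit, with 4, 6 and 4 counts in wild type, 36, 25 and 29 in the deeper Arid2-labelled libraries and 2, 6 and 5 among Smarcb1-labelled libraries. In CPM these are 0.119 to 0.171, 0.391 to 0.466 and 0.0509 to 0.136. The Arid2-labelled libraries were above all others. Smarcb1-labelled against Arid2-labelled gave -1.93 (SE 0.39, adjusted p = 0.0173), and Arid2-labelled against wild type gave 1.59 (SE 0.39), which did not pass (adjusted p = 0.110). The call was lost without Arid2-labelled replicate 2 (adjusted p = 0.0538) or 3 (0.0746) and with the parathyroid covariate (0.113).

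**Figure D3:**
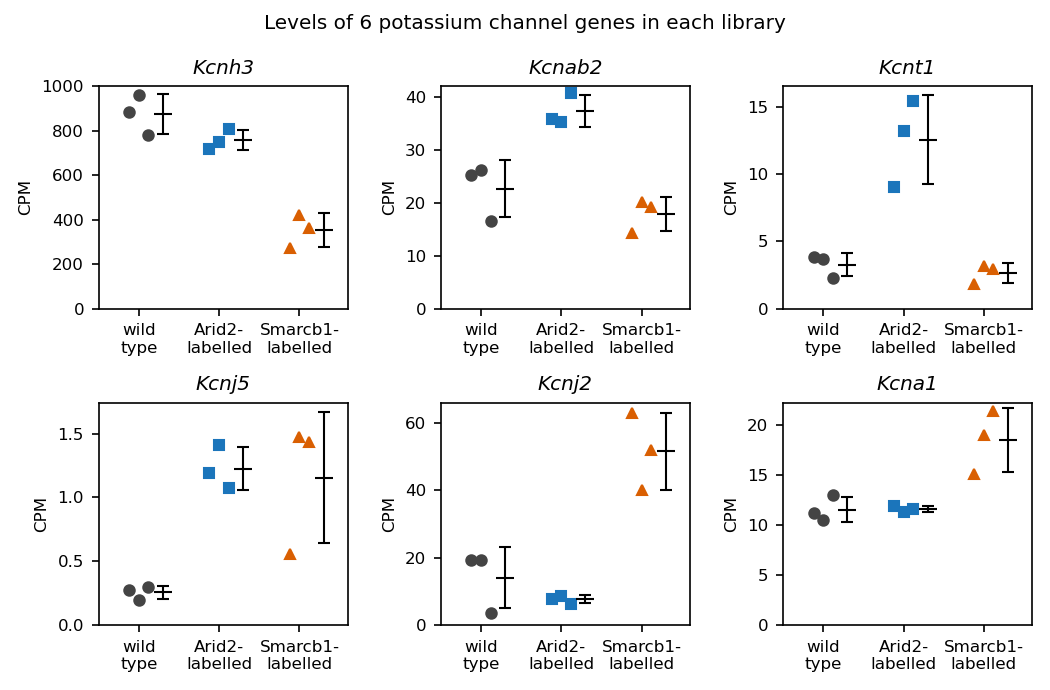
CPM of Kcnh3, Kcnab2, Kcnt1, Kcnj5, Kcnj2 and Kcna1 in each library, by group, with points for libraries and bars for mean ± SD (n = 3). Kcnh3 is lowest and Kcnj2 highest in the 3 Smarcb1-labelled libraries, Kcnt1 and Kcnab2 are highest in the 3 Arid2-labelled libraries, and Kcnj5 is lowest in the 3 wild-type libraries.

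The inward rectifiers held the called genes with the largest rises. Their promoter windows are printed for the pair with the largest rise in Smarcb1-labelled thyroid, Kcnj5 against wild type and Kcnj2 against Arid2-labelled, to show the sequence at the start of the genes whose levels follow. Each window runs from 250 bases before to 50 after the gene's start, 5′ to 3′ on the gene's strand, from RefSeq's GRCm38.p6 table, which held a window for 66 of the 90 genes. The files were made on mm9, another build. Capitals mark 2 of 5 motifs searched on both strands: the GC box GGGCGG and the NK2 homeodomain core CAAGTG.

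Kcnj5 (chr9:32344295-32344594, minus strand): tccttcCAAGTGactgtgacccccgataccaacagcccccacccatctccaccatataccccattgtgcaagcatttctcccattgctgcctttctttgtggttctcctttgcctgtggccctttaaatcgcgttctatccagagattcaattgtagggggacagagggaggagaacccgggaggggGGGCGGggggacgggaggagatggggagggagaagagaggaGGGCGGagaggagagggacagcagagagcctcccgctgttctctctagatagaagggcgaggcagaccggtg
Kcnj2 (chr11:111065914-111066213, plus strand): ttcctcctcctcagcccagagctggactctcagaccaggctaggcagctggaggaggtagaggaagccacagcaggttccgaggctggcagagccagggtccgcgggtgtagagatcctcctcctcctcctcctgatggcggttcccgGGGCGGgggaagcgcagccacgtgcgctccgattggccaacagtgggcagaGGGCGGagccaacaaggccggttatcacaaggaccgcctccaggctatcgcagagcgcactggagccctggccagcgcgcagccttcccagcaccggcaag

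In the Kcnj5 window the GC box begins at bases 188 and 229 and the NK2 core at base 7; in the Kcnj2 window the GC box begins at bases 149 and 200. A GC box is in 35.7% of all 32851 windows of this length and an NK2 core in 13.6%. The TATA box TATAAA (13.6% of windows), the cAMP response element TGACGTCA (1.79%) and the forkhead core TGTTTAC (3.65%) are in neither window.

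Of 15 inward rectifier genes 9 were tested. In Arid2-labelled against wild type 0 were called by edgeR (1 at an unadjusted p under 0.05, 1 by DESeq2, 0 by limma-voom), in Smarcb1-labelled against wild type 1 was higher, and in Smarcb1-labelled against Arid2-labelled 2 were higher. None of the 9 was called lower in any comparison, beside 0.322%, 5.74% and 9.32% of all tested genes in the same order. The shares of all tested genes called higher were 0.234%, 2.15% and 6.95%. Negative fold changes were held by 4, 3 and 4 of the 9, and at these shares 9 genes are too few to read a direction from.

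Kcnj5 encodes Kir3.4, a channel opened by G proteins and known from the heart and the adrenal cortex. It was a low transcript: 0.273, 0.199 and 0.297 CPM in wild type (9, 7 and 10 counts), 1.19, 1.41 and 1.08 CPM among Arid2-labelled libraries (108, 90 and 67 counts) and 0.560, 1.47 and 1.43 CPM among Smarcb1-labelled libraries (22, 65 and 53 counts). Every wild-type library was below the other 6. Kcnj5 was higher in Smarcb1-labelled than in wild-type thyroid by 2.16 on the log2 scale (SE 0.41, adjusted p = 0.0186). In Arid2-labelled against wild type it gave 2.25 (SE 0.41), which did not pass (adjusted p = 0.0527). There it passed by DESeq2 (0.000943), with a robust spread (0.0455) and with the GC trend removed (0.0425). It also passed in a fit of only the 6 libraries compared (0.0257) and without Smarcb1-labelled replicate 1 (0.0253), and in no other alternative. The 2 SWI/SNF groups differed by -0.08 (95% interval -0.89 to 0.73). The Smarcb1-labelled call was lost without wild-type replicate 1 (adjusted p = 0.0698), 2 (0.0650) or 3 (0.0534) or Smarcb1-labelled replicate 3 (0.0669), in a fit of only the 6 libraries compared (0.0554) and with the parathyroid covariate (0.0907).

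Kcnj2 encodes Kir2.1, the strong inward rectifier of muscle and many other cells. It was at 19.2, 19.4 and 3.65 CPM in wild type, 7.76, 8.73 and 6.39 CPM among Arid2-labelled libraries and 63.0, 40.01 and 51.9 CPM among Smarcb1-labelled libraries. The Smarcb1-labelled libraries were above all others, and wild-type replicate 3 was the lowest of the 9. Kcnj2 was higher in Smarcb1-labelled than in Arid2-labelled libraries by 2.76 (SE 0.52, adjusted p = 0.0140). Against wild type it gave 1.87 (SE 0.50, adjusted p = 0.0535), with 0.0352 by limma-voom, 0.00110 by DESeq2, 0.0196 without wild-type replicate 3 and 0.0462 without Smarcb1-labelled replicate 2. The call against Arid2-labelled was lost without Arid2-labelled replicate 3 (adjusted p = 0.0691). Without wild-type replicate 3, Arid2-labelled against wild type gave -1.34 (adjusted p = 0.0497), in place of -0.89 (0.446).

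Kcnj2 went with the parathyroid markers in part. Both were lowest in wild-type replicate 3, and the 3 Smarcb1-labelled libraries had the highest of both. Among the others they parted: Arid2-labelled replicates 1 and 3 had 7.76 and 6.39 CPM of Kcnj2 with 1581 and 10.6 CPM of markers, and wild-type replicates 1 and 2 had 19.2 and 19.4 CPM with 1236 and 4320 CPM. All 3 parathyroid markers had a positive fold change in Smarcb1-labelled against either other group and 0 of 3 passed edgeR's test in either (1 at an unadjusted p under 0.05 in each; 1 by DESeq2 and 1 by limma-voom against Arid2-labelled). With a covariate of these markers, Kcnj2 in Smarcb1-labelled against Arid2-labelled gave 1.78 (adjusted p = 0.111). Since this covariate was above all others in the Smarcb1-labelled libraries, it cannot be told apart from the group, and the markers' part in the Kcnj2 result was not tested.

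Kcnj3 encodes Kir3.1, which pairs with Kir3.4 in the heart. It measured 0.819, 1.28 and 1.01 CPM in wild type, 0.517, 0.955 and 0.835 CPM among Arid2-labelled libraries and 2.19, 1.72 and 1.60 CPM among Smarcb1-labelled libraries. The Smarcb1-labelled libraries were above the other 6. Kcnj3 rose by 1.26 on the log2 scale against Arid2-labelled (SE 0.30, adjusted p = 0.0276), and gave 0.82 against wild type (SE 0.30, adjusted p = 0.117). The call was lost without Arid2-labelled replicate 1 (adjusted p = 0.0680), 2 (0.0570) or 3 (0.0940) or Smarcb1-labelled replicate 1 (0.0873) or 3 (0.0604). It was also lost with the GC trend removed (0.0836), with the parathyroid covariate (0.156), in a fit of only the 6 libraries compared (0.0507) and without both libraries with thymus markers (0.0615). Kcnj3 shares 1621 exonic bases with Gm26794 on the opposite strand, so its level is uncertain.

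The inward rectifiers with the highest levels did not pass the test. Kcnj15 was at 251, 231 and 189 CPM in wild type, 258, 302 and 220 CPM among Arid2-labelled and 288, 234 and 261 CPM among Smarcb1-labelled libraries. Its log2 fold changes were 0.21 (95% interval -0.13 to 0.56) and 0.22 (-0.13 to 0.57) against wild type. Kcnj16, whose product Kir5.1 forms mixed channels with Kir4.2, measured 196, 174 and 162 CPM in wild type, 203, 156 and 166 CPM among Arid2-labelled and 302, 160 and 259 CPM among Smarcb1-labelled libraries. Replicates 1 and 3 of the Smarcb1-labelled group were the highest of the 9, and replicate 2 lay below the wild-type median. Replicate 2 carried thymocyte markers, and in its group it had the highest skeletal muscle markers (1419 CPM) and the lowest parathyroid markers (6092 CPM). Their part in the Kcnj16 values was not tested. Kcnj16 in Smarcb1-labelled against wild type gave 0.44 (SE 0.22, adjusted p = 0.213), and it passed without Smarcb1-labelled replicate 2 (0.66, adjusted p = 0.0270), as it did against Arid2-labelled (0.68, 0.0166, in place of 0.46, 0.160). Without that library the calls over all genes also rose, from 1349 to 2538 and from 2779 to 4411. Kcnj8 encodes Kir6.1, the pore of a vascular ATP-sensitive channel. It ranged from 17.3 to 18.5 CPM in wild type, 13.2 to 26.3 CPM among Arid2-labelled and 9.28 to 16.7 CPM among Smarcb1-labelled libraries, so the Smarcb1-labelled libraries lay below wild type. Kcnj8 gave -0.40 (SE 0.27, adjusted p = 0.355), and against Arid2-labelled it was -0.60 (0.143), with -0.84 (0.0496) without Arid2-labelled replicate 1.

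Tandem-pore genes, which included Kcnk1, the highest of the 90 genes per kb, gave 1 call. Of 14 genes 9 were tested, and 0 were called in Arid2-labelled against wild type (0 at an unadjusted p under 0.05, 0 by DESeq2, 0 by limma-voom). In Smarcb1-labelled against wild type 0 were called by edgeR (3 unadjusted, 1 by DESeq2, 0 by limma-voom), and in Smarcb1-labelled against Arid2-labelled 1 was lower. Kcnk1 was at 563, 506 and 581 CPM in wild type, 490, 482 and 475 CPM among Arid2-labelled and 484, 452 and 446 CPM among Smarcb1-labelled libraries. Wild type was above both other groups in every library, by a small amount. The log2 fold changes were -0.19 (95% interval -0.42 to 0.04, adjusted p = 0.419) and -0.25 (-0.48 to -0.03, adjusted p = 0.139). DESeq2 called Kcnk1 in the second of these (adjusted p = 0.0176).

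Kcnk5 did not separate any of the groups. It measured 83.6, 66.3 and 68.5 CPM in wild type, 70.3, 92.4 and 80.4 CPM among Arid2-labelled and 73.5, 73.1 and 73.5 CPM among Smarcb1-labelled libraries, and the groups overlapped. Smarcb1-labelled against wild type gave 0.01 (95% interval -0.28 to 0.30) and Arid2-labelled against wild type 0.15 (-0.13 to 0.44). Kcnk3 encodes TASK-1, an acid-sensitive leak channel. It ranged from 14.9 to 25.1 CPM in wild type, 19.4 to 38.2 CPM among Arid2-labelled and 9.82 to 20.1 CPM among Smarcb1-labelled libraries, and the groups overlapped.

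Kcnk4, which encodes the mechanically gated channel TRAAK, had 17 to 30 counts in wild type, 50 to 78 among Arid2-labelled and 13 to 18 among Smarcb1-labelled libraries. Its CPM were 0.910, 0.484 and 0.890 in wild type, 0.858, 0.876 and 0.803 among Arid2-labelled and 0.458, 0.385 and 0.352 among Smarcb1-labelled libraries. The Smarcb1-labelled values were the 3 lowest. Kcnk4 was lower in Smarcb1-labelled than in Arid2-labelled libraries, at -1.08 on the log2 scale (SE 0.30, adjusted p = 0.0408). This call was kept without wild-type replicate 2 and lost without any of the other 8 libraries, with adjusted p from 0.0577 to 0.117. It was also lost with no filter (0.0645), with the GC trend removed (0.115), with the parathyroid covariate (0.219) and without both libraries with thymus markers (0.100). Kcnk4 shares 587 exonic bases with Catsperz on the same strand, so its level is uncertain.

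The group formed by the names Kcnma, Kcnn, Kcnt and Kcnu, mostly calcium- or sodium-activated channels, gave the call in Arid2-labelled thyroid. All 8 genes of this group were tested, and in Arid2-labelled against wild type 1 was higher. In Smarcb1-labelled against wild type 0 were called by edgeR, DESeq2 or limma-voom (0 at an unadjusted p under 0.05). In Smarcb1-labelled against Arid2-labelled 1 was lower. Kcnt1 encodes Slack, a sodium-activated channel known from neurons. It was at 3.85, 3.70 and 2.28 CPM in wild type, 9.02, 13.3 and 15.5 CPM among Arid2-labelled libraries and 1.83, 3.17 and 2.98 CPM among Smarcb1-labelled libraries. The Arid2-labelled libraries were above all others, and wild type overlapped Smarcb1-labelled. Kcnt1 rose from 3.28 ± 0.865 CPM (SD, n = 3) in wild type to 12.6 ± 3.29 CPM in the Arid2-labelled group, with 1.94 as the log2 fold change (SE 0.31, adjusted p = 0.0345). Smarcb1-labelled against Arid2-labelled gave -2.24 (SE 0.31, adjusted p = 0.00623), and Smarcb1-labelled against wild type gave -0.30 (SE 0.31, adjusted p = 0.541).

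The Kcnt1 call against wild type was lost without wild-type replicate 1 (adjusted p = 0.129), 2 (0.116) or 3 (0.0822), Arid2-labelled replicate 2 (0.125) or 3 (0.135) or Smarcb1-labelled replicate 3 (0.0528), and with the parathyroid covariate (1.95, 0.0588). In these fits its log2 fold change stayed between 1.74 and 2.07. Against Smarcb1-labelled the call was kept in 9 of 9 such fits and lost with the parathyroid covariate (-2.28, adjusted p = 0.0508). Neuron and Schwann cell markers summed to 293 to 395 CPM among Arid2-labelled libraries, beside 292 to 306 CPM in wild type, and 0 of 9 tested markers were called by edgeR (3 at an unadjusted p under 0.05, 0 by DESeq2, 0 by limma-voom). Airway epithelium markers were higher there, 3 of 8 called and 8 of 8 positive, with a summed level of 69.0 to 104 CPM beside 33.5 to 40.5 CPM in wild type. Endothelial markers had 1 of 8 called and 8 of 8 positive, with 663 to 829 CPM beside 381 to 533 CPM. Their part in the Kcnt1 result was not tested. Kcnu1, the gene of the sperm channel Slo3, had 3 to 15 counts in wild type and 12 to 29 in the other libraries, and no comparison passed.

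The silent partners, which form no working channel on their own and modify other voltage-gated subunits, gave no calls by edgeR. Of 10 genes 3 were tested. In Arid2-labelled against wild type 0 were called (2 at an unadjusted p under 0.05, 1 by DESeq2, 0 by limma-voom), in Smarcb1-labelled against wild type 0 (0, 0 and 0), and in Smarcb1-labelled against Arid2-labelled 0 (2, 0 and 1). Kcng1 measured 1.79, 3.73 and 1.63 CPM in wild type, 0.528, 0.407 and 0.225 CPM among Arid2-labelled and 3.03, 1.29 and 0.135 CPM among Smarcb1-labelled libraries. The Arid2-labelled values were below wild type (log2 fold change -2.61, SE 0.84, adjusted p = 0.193; 0.0201 by DESeq2). The Smarcb1-labelled values were widely spread, and without replicate 3 they passed against Arid2-labelled (2.46, adjusted p = 0.0445). Kcng4 was at 4.28, 14.4 and 0.564 CPM in wild type, 3.79, 3.02 and 3.39 CPM among Arid2-labelled and 18.4, 16.9 and 13.8 CPM among Smarcb1-labelled libraries. Smarcb1-labelled overlapped wild-type replicate 2 only, and gave 2.27 against Arid2-labelled (SE 0.81, adjusted p = 0.0804). Kcng4 passed there in a fit of only the 6 libraries compared (0.00633) and by limma-voom (0.0476). It also passed without wild-type replicate 2 (0.0421) or 3 (0.0171), and in no other alternative. Kcns3 ranged from 10.2 to 12.04 CPM in wild type, 7.25 to 9.24 CPM among Arid2-labelled and 7.50 to 11.1 CPM among Smarcb1-labelled libraries.

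Kcng4 went with the parathyroid markers as Kcnj2 did. Wild-type replicate 2, with 4320 CPM of summed parathyroid markers, had 14.4 CPM of Kcng4, and wild-type replicate 3, with 8.16 CPM of markers, had 0.564 CPM. Arid2-labelled replicate 3 departed from this, with 10.6 CPM of markers and 3.39 CPM of Kcng4. The markers' part in the Kcng4 values was not tested.

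Among auxiliary subunits Kcnab2 was the called gene. Of 14 genes 12 were tested, with 0 called in Arid2-labelled against wild type (3 at an unadjusted p under 0.05, 2 by DESeq2, 0 by limma-voom), 0 in Smarcb1-labelled against wild type (1, 0 and 0) and 1 lower in Smarcb1-labelled against Arid2-labelled. Kcnab2 encodes the Kv-beta-2 subunit, a partner of Kv1 channels with an oxidoreductase fold. It measured 25.2, 26.2 and 16.5 CPM in wild type, 35.8, 35.3 and 40.7 CPM among Arid2-labelled libraries and 14.2, 20.2 and 19.1 CPM among Smarcb1-labelled libraries. Arid2-labelled was above all others, and wild type overlapped Smarcb1-labelled. Smarcb1-labelled against Arid2-labelled gave -1.06 (SE 0.20, adjusted p = 0.0134). The call was lost without Arid2-labelled replicate 3 (adjusted p = 0.0632) and with the parathyroid covariate (0.0634), and with the GC trend removed the change was -0.63 (0.0398). Arid2-labelled against wild type gave 0.72 (SE 0.20, adjusted p = 0.133; 0.0284 by DESeq2).

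Kcnip3, the highest per kb of the 14 auxiliary members, was at 152, 182 and 90.6 CPM in wild type, 115, 139 and 141 CPM among Arid2-labelled and 107, 104 and 140 CPM among Smarcb1-labelled libraries. Wild-type replicates 2 and 3 spanned all other libraries, and the fold changes against wild type were -0.11 (95% interval -0.64 to 0.42) and -0.27 (-0.81 to 0.26). Kcnmb1 encodes the beta-1 subunit of the BK channel of smooth muscle. It had 3, 7 and 9 counts in wild type, 25, 20 and 51 among Arid2-labelled and 14, 27 and 17 among Smarcb1-labelled libraries, and every wild-type library was below the other 6 in CPM. At such low counts that order is uncertain, as between wild-type replicate 3 and the deeper Arid2-labelled replicate 1. Its log2 fold changes of 1.31 (SE 0.55, adjusted p = 0.312) and 1.35 (SE 0.56, adjusted p = 0.157) did not pass. Summed smooth muscle and pericyte markers were 405 to 558 CPM in wild type, 541 to 780 CPM among Arid2-labelled and 448 to 584 CPM among Smarcb1-labelled libraries, and their part in the Kcnmb1 values was not tested.

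A further 4 genes, chosen after their values were seen, went with markers of neighbouring tissue in single libraries. Kcnn4 and Kcna3 encode KCa3.1 and Kv1.3, both known from lymphocytes. The libraries with thymocyte markers were Arid2-labelled replicate 1, where Kcnn4 stood at 16.1 CPM, and Smarcb1-labelled replicate 2, where it stood at 3.89 CPM. It was at 0.204 to 1.14 CPM in the remaining 7. Kcna3 stood at 4.12 and 0.588 CPM in the same libraries and at 0.0910 to 0.321 CPM in the others. Of 10 thymocyte markers 5 were tested and 0 were called by edgeR, DESeq2 or limma-voom in any comparison (2, 0 and 0 at an unadjusted p under 0.05). The part of thymus tissue in these levels was not tested.

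Kcna7, known from muscle and heart, and Kcnma1, the BK channel pore, went with skeletal muscle markers. Summed muscle markers were 1393, 22.9 and 496 CPM in wild type, 1346, 519 and 2222 CPM among Arid2-labelled and 401, 1419 and 107 CPM among Smarcb1-labelled libraries. Kcna7 measured 3.03, 0.342 and 1.19 CPM in wild type, 2.47, 1.31 and 4.87 CPM among Arid2-labelled and 1.09, 3.62 and 0.595 CPM among Smarcb1-labelled libraries. It was lowest in wild-type replicate 2 and highest in Arid2-labelled replicate 3, as the markers were. Kcnma1 was at 2.04 to 3.13 CPM in the 4 libraries with the highest muscle markers and at 0.199 to 0.514 CPM in the other 5. All 12 muscle markers were tested and 0 were called by edgeR, DESeq2 or limma-voom in any comparison (1, 0 and 0 at an unadjusted p under 0.05). Their part in the levels of these genes was not tested.

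**Figure D4:**
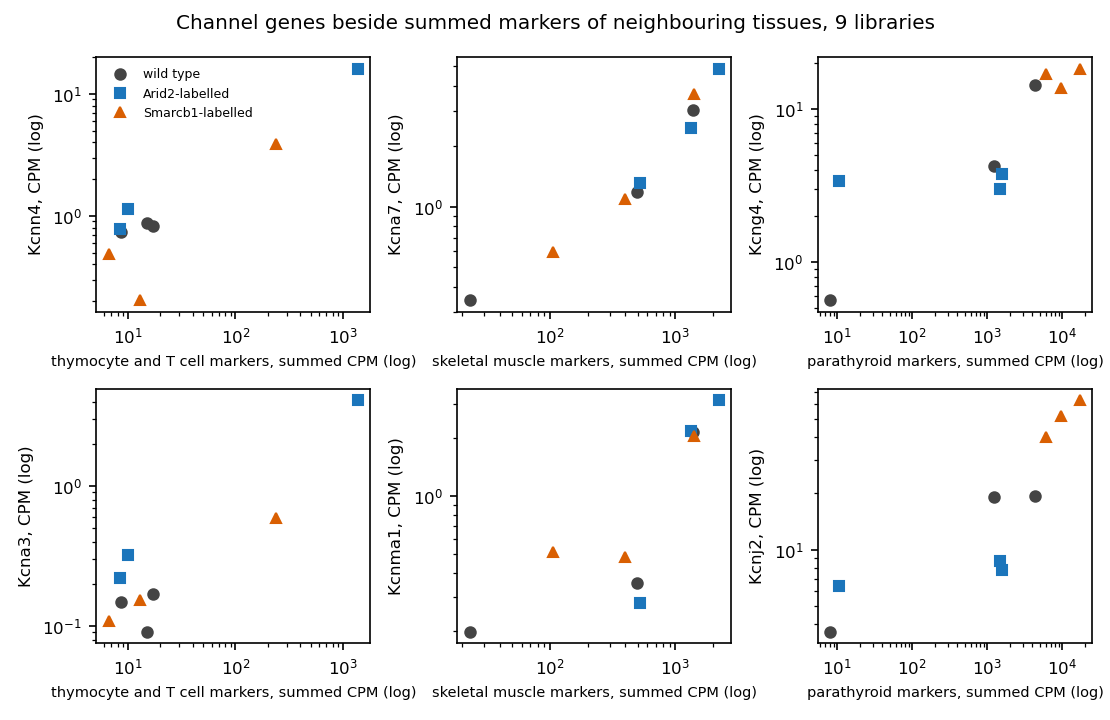
CPM of 6 channel genes against the summed CPM of thymocyte, skeletal muscle or parathyroid markers, with 1 point for each of the 9 libraries, both axes on log scales. Kcnn4 and Kcna3 are highest in the library with 1378 CPM of thymocyte markers, Kcna7 and Kcnma1 in the library with 2222 CPM of muscle markers, and Kcnj2 and Kcng4 in the library with 16992 CPM of parathyroid markers.

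Genes that work beside these channels but lie outside the naming rule were read from 2 lists. Of 14 other channel partners, such as Hcn, Abcc and Lrrc genes, 10 were tested. In Arid2-labelled against wild type 0 were called by edgeR (4 at an unadjusted p under 0.05, 1 by DESeq2, 0 by limma-voom), and in Smarcb1-labelled against wild type 0 (1, 1 and 0). In Smarcb1-labelled against Arid2-labelled 2 were lower: Lrrc26, a BK channel partner of secretory epithelium, at -2.27 on the log2 scale (SE 0.53, adjusted p = 0.0249), and Hcn2, a pacemaker channel, at -1.73 (SE 0.42, adjusted p = 0.0283). Airway epithelium markers were also lower there, 4 of 8, with a summed level of 69.0 to 104 CPM among Arid2-labelled and 28.3 to 74.0 CPM among Smarcb1-labelled libraries, and their part in the Lrrc26 value was not tested. Of 15 genes of the sodium-potassium pump and potassium cotransport 14 were tested. None was called against wild type in the Arid2-labelled group (1 unadjusted, 0 by DESeq2, 0 by limma-voom) or the Smarcb1-labelled group (3, 1 and 0). Atp1b3, a pump beta subunit, was higher in Smarcb1-labelled than in Arid2-labelled libraries by 0.44 (SE 0.11, adjusted p = 0.0305). The list's medians were 0.09, 0.10 and -0.15 in the 3 comparisons.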

How the data were processed

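Per the labels' protocols, mouse thyroids were snap frozen, TRIzol was used to extract total RNA, and an Illumina TruSeq kit to build the libraries. The build mm9 and the tools STAR 2.4, HTSeq 0.6.1 and DESeq2 are listed in the submitters' processing notes without a role; whether counting used strand is not given in the sources used here. The authors deposited raw, whole-number counts per gene, not normalized, and the 9 libraries were grouped by genotype label. Counts were tested with edgeR 4.0.16 in R 4.3.3 (TMM scaling, filterByExpr by group, then the quasi-likelihood F test) in 1 fit of 3 group means with 6 residual degrees of freedom and no covariate. The filter kept 17079 genes, and p-values were adjusted over all of them by Benjamini-Hochberg. Genes were called at an adjusted p under 0.05, and the standard error of a log2 fold change was derived from its F statistic.

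CPM are scaled with TMM factors. Lengths and GC content come from the longest GRCm38 transcript, matched by symbol for 97.3% of tested genes, and promoter windows from RefSeq's GRCm38.p6 table. Genes were named by rule: those called in any comparison, the 12 highest per kb, the smallest p of each family in each comparison, and the called members of both further pathway lists, up to 4 each; some genes this rule names are not reported here. Kcnn4, Kcna3, Kcna7 and Kcnma1 were added after their values were seen. The members and lists were chosen with earlier results of these data known. Alternatives were other scalings and filters, DESeq2 1.42.0, limma-voom (limma 3.58.1), a robust spread, only the 6 libraries compared, removal of each library's GC trend (a spline with 5 degrees of freedom), a parathyroid covariate (Pth, Gcm2 and Casr, as their mean log2(CPM + 1)), omission of both libraries with thymus markers, stricter thresholds and leaving out each library. The edgeR step was tested on simulated data. The labels name no molecular identifiers, so counting error is a lower limit of the error of a count.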

Additional observations from a re-analysis of the deposited data

How the results depend on the processing

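The number of channel genes called moved with the processing, while no called fold change changed sign. In Arid2-labelled against wild type, with 1 called, it was 2 with a robust spread, 2 with the GC trend removed, 0 with the parathyroid covariate, 6 by DESeq2, 2 in a fit of only the 6 libraries compared and 0 at an adjusted p under 0.01, and it ran from 0 (without wild-type replicate 1 or 2, Arid2-labelled replicate 2 or 3, or Smarcb1-labelled replicate 3) to 2 (without Smarcb1-labelled replicate 1) when 1 library was left out. In Smarcb1-labelled against wild type, with 4 called, it was 1 with the parathyroid covariate, 1 in a fit of only the 6 libraries, 1 at an adjusted p under 0.01 and 2 at a fold of at least 2, and it ran from 1 (without wild-type replicate 1 or 2 or Smarcb1-labelled replicate 3) to 7 (without Smarcb1-labelled replicate 2), with 2 without wild-type replicate 3 or Arid2-labelled replicate 2. In Smarcb1-labelled against Arid2-labelled, with 11 called, it was 7 with the GC trend removed, 1 with the parathyroid covariate and 3 at an adjusted p under 0.01, and it ran from 3, without Arid2-labelled replicate 3, to 16, without Smarcb1-labelled replicate 2, with 5 without Arid2-labelled replicate 2 and 7 without Smarcb1-labelled replicate 1 or 3. The cause of these moves was not tested, beyond the stricter thresholds and smaller fits themselves. Over all genes the counts were 95, 1349 and 2779. They were 904, 2751 and 4284 by DESeq2, 208, 458 and 1274 with the GC trend removed, and 79, 197 and 145 with the parathyroid covariate. With 1 library left out they ran from 5 to 167, 344 to 2538 and 395 to 4411. The single gene called in Smarcb1-labelled against wild type at the stricter threshold was Kcnh3. No paired analysis was possible because the labels give the groups no shared replicate numbers. Depth limited the 26 untested genes and those with under 30 counts in a library, such as Kcnh4, Kcnj5, Kcnk4 and Kcnmb1.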
